A study of Homo sapiens with 2 samples.

Results

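Broad ING5 peaks are regions of 1000 bp or more over which ING5-bound chromatin was enriched. They were selected on the length column of 1 peak list, on chromosomes 1 to 22 and X. Of the 8589 peaks on those chromosomes, 501 were this long and 8088 were narrower; the whole list held 8608. The data came from chromatin immunoprecipitation sequencing (ChIP-seq) of ING5, with 1 library, and 1 library of input DNA, both from untreated HepG2 cells, an established human liver cancer line. There were 12416160 fragments for ING5 and 9915170 for the input. Neither library had a replicate, so no test was made, and the 95% intervals given here are exact Clopper-Pearson intervals that cover counting error only. Positions are those of the list, read as GRCh38. A promoter peak is one whose summit, the base with the highest fragment count, lay within 1000 bp of an annotated start of a protein-coding transcript.

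ING5 belongs to the inhibitor of growth family. Its plant homeodomain finger reads histone H3 methylated on a lysine that marks active gene starts, and the protein is a subunit of acetyltransferase complexes of the MYST family, in which KAT7, KAT6A or KAT6B adds acetyl groups to histones. A reader of this kind can follow its mark, and the mark itself forms wide domains at some genes and narrow ones at others. The width of an occupied region is thus one of the properties by which gene starts differ.

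Most promoters beneath broad peaks were rich in CpG dinucleotides, the sites of DNA methylation, which stay mostly unmethylated in dense clusters called CpG islands. The 5 stretches printed here show the range, for a developmental transcription factor gene (TFAP2A), an integrin gene (ITGB8), a nuclear RNA-binding protein gene (HNRNPU), a ribosomal protein gene (RPL13) and the host gene of let-7 microRNAs (MIRLET7BHG). Each gives the 250 bases before a RefSeq start (GRCh38.p14), 5′ to 3′ on the strand of the gene, with every CpG in capitals. They were chosen after the peaks were seen, and all 250 bases of each lay inside a broad peak. The stretches are chr6:10412392-10412641 (minus strand), chr7:20330650-20330899 (plus), chr1:244864544-244864793 (minus), chr16:89560432-89560681 (plus) and chr22:46085747-46085996 (plus).
TFAP2A: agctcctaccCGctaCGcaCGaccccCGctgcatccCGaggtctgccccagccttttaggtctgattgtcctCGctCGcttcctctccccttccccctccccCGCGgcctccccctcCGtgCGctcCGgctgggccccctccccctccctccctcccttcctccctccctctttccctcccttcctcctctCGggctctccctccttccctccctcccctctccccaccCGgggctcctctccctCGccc
ITGB8: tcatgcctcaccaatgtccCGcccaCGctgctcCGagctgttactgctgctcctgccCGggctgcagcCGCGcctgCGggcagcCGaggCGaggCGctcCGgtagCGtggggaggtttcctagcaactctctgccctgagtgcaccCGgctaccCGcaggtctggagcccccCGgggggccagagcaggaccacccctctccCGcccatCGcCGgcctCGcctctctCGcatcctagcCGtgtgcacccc
HNRNPU: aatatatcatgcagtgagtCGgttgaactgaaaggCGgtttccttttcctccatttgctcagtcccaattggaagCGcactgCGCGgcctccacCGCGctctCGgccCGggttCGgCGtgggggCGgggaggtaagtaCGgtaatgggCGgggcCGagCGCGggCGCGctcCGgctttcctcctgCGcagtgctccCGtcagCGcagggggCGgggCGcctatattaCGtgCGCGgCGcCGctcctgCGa
RPL13: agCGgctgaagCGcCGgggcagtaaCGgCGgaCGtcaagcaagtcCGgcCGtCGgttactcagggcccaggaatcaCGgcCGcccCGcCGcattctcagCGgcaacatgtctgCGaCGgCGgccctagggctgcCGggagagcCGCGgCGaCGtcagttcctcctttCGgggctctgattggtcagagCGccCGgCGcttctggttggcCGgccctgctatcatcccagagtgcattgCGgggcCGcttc
MIRLET7BHG: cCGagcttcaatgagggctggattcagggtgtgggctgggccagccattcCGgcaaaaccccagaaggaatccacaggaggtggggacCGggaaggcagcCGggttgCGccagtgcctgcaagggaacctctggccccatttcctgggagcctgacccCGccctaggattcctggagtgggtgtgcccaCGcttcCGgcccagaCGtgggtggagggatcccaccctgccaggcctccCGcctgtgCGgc

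The HNRNPU stretch held 31 CpG and 3 GC boxes (GGGCGG on either strand), and that of RPL13 held 29 CpG and 1 GC box. ITGB8 had 21 CpG and 2 GC boxes. TFAP2A, at a start 2683 bp from its canonical one, had 15 CpG and no GC box in a stretch of 71.2% G and C, and MIRLET7BHG had 11 CpG, a ratio of observed to expected of 0.391. The bases are thus GC-rich at all 5 starts, between 66.0% and 71.2%, while the number of CpG differs. The ratio of observed to expected CpG in the 300 bases around a start had a median of 0.872 over the 170 RefSeq windows whose start lay in a broad peak. It was 0.838 over 873 windows with the start in a narrower peak and 0.733 over 20376 windows with no peak over the start. Since few peaks cover a start, the same was done by gene. The median was 0.845 for the 425 genes with a broad promoter peak, which are 2.14% of all protein-coding genes (345 of them matched the table), 0.843 for genes with narrower promoter peaks only and 0.644 for genes without a promoter peak. Counted by gene, CpG content therefore differed between genes with and without a peak, and broad and narrower differed by little beside quartiles of 0.656 and 0.968 for broad.

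Short motifs were searched on both strands of the same windows, and their order was not the same for each motif. The GC box GGGCGG was found in 67.2% of windows of genes with a broad peak, 68.6% with narrower peaks only and 50.7% without a peak, against 56.9% of all windows. The TATA-like TATAAA stood in 7.23%, 5.99% and 11.2% in the same order (9.40% of all), and CCAAT in 30.7%, 34.8% and 34.96% (34.8% of all). The ETS-type motif CCGGAAG stood in 12.9% of windows of genes with a broad peak, 19.02% with narrower peaks only and 9.91% without, against 12.9% of all. The remaining 2 motifs, CACGTG and TGACGTCA, were in 10.05% and 3.18% of windows of genes with a broad peak and in 8.36% and 2.28% of all windows. A match gives the letters only and is not evidence of a bound factor.

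Broad peaks covered from 1000 bp up to the 11697 bp at TFAP2A. Their median width was 1285 bp with quartiles of 1124 and 1602 bp, against 322 bp for narrower peaks. The 3 peaks just inside the limit all measured 1000 bp and lay at SERBP1 (35 fragments at the summit), KCTD14 (14) and MESP1 (13). Just outside it were PTPN12 with 998 bp and 15 fragments, SETD1B with 997 bp and 19, and CGAS with 996 bp and 23. All 6 were promoter peaks and their heights overlapped, so the limit cuts a continuous range.

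Width went with height. The median pileup, the number of fragments over the summit, was 21 for broad peaks (quartiles 17 and 29) and 12 for narrower ones, and the median fold enrichment over local background was 10.8 against 6.46. Broad peaks made up 0.052% of peaks with a pileup of 7 to 9, 1.52% at 10 to 14, 8.77% at 15 to 19 and 25.9% at 20 to 29. Above that they were the majority, with 57.5% at 30 to 39 and 75.4% at 40 or more. Across all 8589 peaks the rank correlation of width and pileup was 0.567, and within the broad ones it was 0.432; both come from 1 library and are descriptions. Because the members were chosen by width, their greater height is not a separate finding, and shares below are also given for peaks with a pileup of 20 to 40 (261 broad, 572 narrower). That range narrows the gap in height but does not close it, with medians of 25 and 22 fragments. Tall and narrow peaks existed too: the highest narrower peak had 807 fragments over a local background of 119.6.

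**Figure D1:**
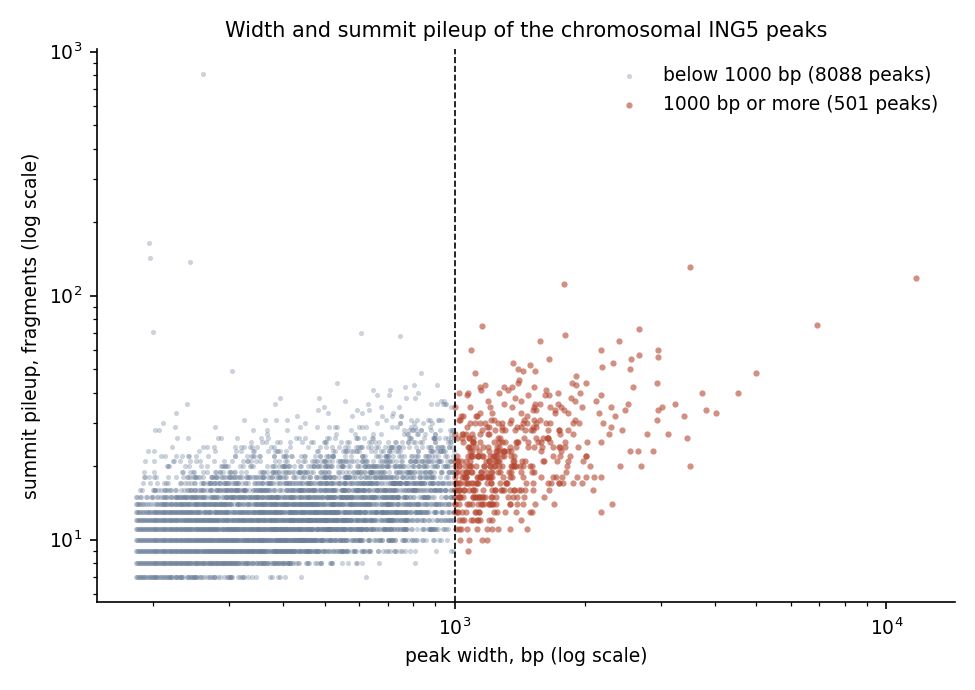
Width in bp (log scale) against summit pileup in fragments (log scale) for the chromosomal peaks, 1 point per pair of values, with the limit of 1000 bp dashed. The 501 broad peaks (red) have a median of 21 fragments, the 8088 narrower ones (blue) 12, and the 2 groups overlap in pileup.

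The 10 widest peaks lay mostly at regulators of development and growth and at noncoding transcripts. Next to TFAP2A with its 11697 bp stood 4 peaks in or beside MIRLET7BHG, of 6905, 4984, 4529 and 3511 bp, with 76, 48, 40 and 131 fragments at the summit. The others lay at MYC, a growth-promoting transcription factor gene (4023 bp, 33 fragments), and HOXA10, a homeobox gene (3826 bp, 34). They also included IRS2, an adaptor of the insulin receptor (3747 bp, 40), ELF3, an epithelial ETS factor gene (3505 bp, 20), and LAMA5, a laminin chain of basement membranes (3451 bp, 26). Not all of them were tall, and ELF3 had about the median height of all broad peaks.

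High fold enrichment was reached at widths from 1369 to 11697 bp. TFAP2A stood 63.2-fold over background, the 3511 bp peak of MIRLET7BHG 57.0-fold, and a 1790 bp peak near CDKN1B, whose summit lay 143 bp from a long noncoding RNA (lncRNA) start, 46.2-fold. IGF2BP3, which encodes an RNA-binding protein of fetal and tumour tissue, had 39.9-fold over 2669 bp. RUNX1, a gene for a factor of blood development, had 29.1-fold over 1369 bp, with its summit 240 bp from a start and 162359 bp downstream of the canonical one. Other broad peaks were tall over a raised local background instead. At NUP98 and PGAP2, which share a promoter region, 75 fragments stood over a background of 5.88, which made 11.05-fold. YAP1, the coactivator of the Hippo pathway, had 65 fragments over 4.77 (11.4-fold), OSMR, the oncostatin M receptor, 65 over 3.57 (14.4-fold), and GOLPH3, a Golgi protein gene, 60 over 2.78 (16.1-fold). The lowest local background of the list was 0.853 fragments. A background above it was found under 45.7% of broad peaks (41.3 to 50.2) and 39.1% of narrower ones (38.0 to 40.2). In the pileup range of 20 to 40 the order was the other way, with 47.9% (41.7 to 54.1) and 61.4% (57.2 to 65.4).

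The share of broad summits in promoters was above or below that of others by setting. The share was 394 of 501, or 78.6% (74.8 to 82.2), against 75.8% of narrower peaks (74.9 to 76.8). Between pileups of 20 and 40 it was 81.6% (76.4 to 86.1) against 83.9% (80.6 to 86.8), so the sign of the difference turned and the intervals overlapped in both. Broad peaks were also lower with canonical starts alone (56.7% against 65.2%) and in the more significant part of the list (80.5% against 85.3%). Exons outside promoters held 4.99% of broad summits (3.26 to 7.28) and 3.13% of narrower ones (2.76 to 3.53), introns 6.19% (4.24 to 8.67) and 10.95% (10.3 to 11.7), and intergenic sequence 10.2% and 10.1%. In the pileup range of 20 to 40 introns held 5.36% and 5.42%, exons 5.36% (2.96 to 8.84) and 1.75% (0.841 to 3.19), and intergenic sequence 7.66% and 8.92%. The promoter share of broad peaks fell with width, from 82.7% at 1000 to 1494 bp and 77.3% at 1500 to 1983 bp to 56.9% at 2000 bp or more (43.2 to 69.8, 58 peaks). Several of these 58 lie close together at HOXA and MIRLET7BHG, and the interval counts them as separate cases. The summit of a wide region can lie far from a start that the region reaches. With any base of the peak counted, 85.4% of broad and 77.7% of narrower peaks came within 1000 bp of a start.

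Broad peaks lay over the first part of the transcribed gene. Of 404 broad summits within 3000 bp of a canonical start, the main start in the annotation, 92.6% lay downstream (89.6 to 94.9), against 85.3% of 6205 narrower ones (84.4 to 86.1). At a pileup of 20 to 40 the shares were 93.5% (89.4 to 96.4) and 90.4% (87.4 to 92.9). Measured to any annotated protein-coding start, they were 75.8% and 74.5% over all peaks, a much smaller difference. The median broad summit lay 629 bp downstream of the start, with median edges at 83 bp and 1376 bp downstream, while narrower peaks had a median summit at 386 bp and edges at 167 and 604 bp. The upstream edges of the 2 groups thus lay within 84 bp of one another, and the downstream edges 772 bp apart. In the pileup range of 20 to 40 the broad edges were at 79.5 and 1437 bp and the narrower ones at 129.5 and 839.5 bp. The added width therefore lay mostly on the gene side of the start.

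**Figure D2:**
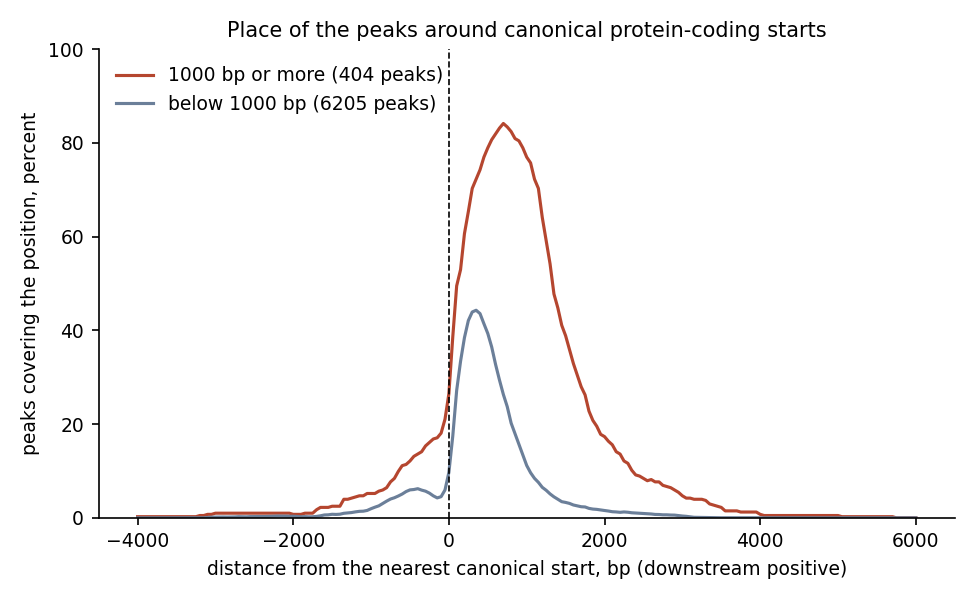
Share of peaks, in percent, that cover each position around the nearest canonical protein-coding start (distance in bp, downstream positive), for peaks with the summit within 3000 bp. Broad peaks (red) reach 84.2% at 700 bp downstream and narrower ones (blue) 44.3% at 350 bp, and at the start itself the shares are 26.5% and 9.70%.

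The start itself was covered by 26.5% of these broad peaks (22.2 to 31.1), while 69.3% lay wholly downstream of it and 4.21% wholly upstream. At 1000 bp downstream 77.0% of broad peaks were still present, at 2000 bp 17.3% and at 3000 bp 4.70%. For most genes this is a small part of the transcript: the broad peak covered a median of 4.68% of the canonical transcript over 425 genes, and under 10% at 290 of them. Some short genes were covered for the most part. At 31 genes the peak held 50% or more of the transcript, and at 6 it held 90% or more, among them the histone genes H3C4 (98.0%) and H2AX (92.5%), the mitochondrial ribosomal protein gene MRPS34 (94.3%), HOXA10 (93.1%) and ZNHIT2 (92.2%). JUND, an intronless AP-1 factor gene, had 71.4% under its peak, the cytoplasmic actin gene ACTG1 77.4% and the ribosomal protein gene RPS15 78.2%.

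Protein-coding starts on both strands lay near a smaller share of broad than of narrower promoter summits. Peaks with such starts made up 10.2% of broad promoter peaks (7.35 to 13.6) and 15.8% of narrower ones (14.9 to 16.8). At a pileup of 20 to 40 the shares were 8.45% (5.09 to 13.03) and 15% (11.9 to 18.5). The intervals were apart in the whole list and overlapped in that pileup range. Promoters of 2 or more protein-coding genes followed the same order, with 12.4% (9.34 to 16.1) and 19.1% (18.1 to 20.1), and 11.3% and 17.1% in the pileup range. Both counts took starts within 1000 bp of the summit. Broad summits lay farther downstream of the canonical start, at a median of 629 bp against 386 bp. The window therefore reached less far upstream of the start for broad peaks, and how far this lowers their shares was not tested.

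Transcription factor genes had a promoter peak about as often as all genes and a broad one more often. Of 673 developmental and signal-dependent transcription factor genes, 31.7% had a promoter peak of any length, and of all 19819 protein-coding genes 30.9% did. A broad promoter peak was found at 34 of the 673 (5.05%, 3.52 to 6.99), against 2.14% of all protein-coding genes. Among their promoter peaks 35 of 299 were broad (11.7%, 8.29 to 15.9), against 6.04% of all promoter peaks. Put the other way, 8.88% of broad promoter peaks (6.27 to 12.1) and 4.30% of narrower ones (3.81 to 4.84) lay at such a gene. With canonical starts alone the shares were 5.63% (16 of 284) and 3.58%. That broad share lay below the interval of the main value, and no interval was computed for it. The typical peak of the list was ordinary, with a median width of 379 bp and a median pileup of 12.

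The transcription factor genes with broad peaks included 7 HOX genes, which set position along the body axis: HOXA9, HOXA10, HOXA11, HOXA13, HOXC6, HOXC9 and HOXC10. Several share a peak or a run, so they are not separate cases. HOXA9, HOXC6 and HOXC9 were counted through annotated starts other than the canonical one. Their canonical starts lay more than 1000 bp from the summits of these broad peaks. With HOX genes left out of the list, 6.85% of broad and 4.03% of narrower promoter peaks lay at a listed gene, without computed intervals. The others covered many families. Nuclear receptor genes were NR2F2 (2519 bp, 36 fragments) and NR2F6 (1885 bp, 30), and genes of the AP-1 family, which answers growth signals, were JUND (1377 bp, 38), FOSL1 (1200 bp, 14) and FOSL2 (1031 bp, 31). TGIF1, a homeobox repressor gene, had 2960 bp and 34 fragments. PITX1, a homeobox gene of limb and pituitary development, had 1623 bp and 39, CEBPD, a factor of acute-phase responses, 1653 bp and 39, and TBX3, a T-box gene, 1396 bp and 29. EPAS1, which encodes a hypoxia-inducible factor subunit, had 1666 bp and 25 fragments, NFE2L2, the regulator of antioxidant genes, 1175 bp and 30, and SREBF1, a regulator of lipid synthesis, 1143 bp and 27. STAT5A and STAT5B shared 1 peak of 1106 bp with 12 fragments, the lowest in the list. Summits here were mostly tall, at 30 fragments or more for 18 of the 34 genes and below 20 for 3.

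The share of transcription factor genes depended on the pileup. At 15 to 19 fragments 0 of 108 broad promoter peaks lay at a listed gene (upper bound 3.36%), against 39 of 1197 narrower ones (3.26%). At 20 to 29 it was 12 of 150 (8%, 4.20 to 13.6) against 24 of 438 (5.48%, 3.54 to 8.04), and at 30 to 40 it was 18 of 63 (28.6%, 17.9 to 41.4) against 2 of 42 (4.76%, 0.582 to 16.2). The higher share among broad peaks was thus found among tall peaks and not among low ones. Read as 1 range, from 20 to 40 fragments, it was 14.1% (9.71 to 19.5) against 5.42% (3.57 to 7.84). The 18 peaks at 30 to 40 fragments included those of HOXA9, HOXA10, HOXA11 and HOXA13, which lie in the same run, and of HOXC10. The intervals count neighbouring peaks as separate cases, and shares by pileup were not computed without HOX genes.

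Genes named ZNF, mostly zinc finger repressors, were at the other end. A promoter peak of any length was found at 118 of 504 (23.4%) and a broad one at 3 (0.595%, 0.123 to 1.73), below the 2.14% of all genes. These were ZNF622, with 1548 bp and 30 fragments, and ZNF398 and ZNF425, which share 1 peak of 1471 bp with 11 fragments.

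Ribosomal protein genes had broad peaks more often than most lists, at lower heights than transcription factor genes. A promoter peak of any length was also frequent, at 72 of 86 genes (83.7%), against 30.9% of all genes. The cytosolic ribosome had 19 of 86 genes with a broad promoter peak (22.1%, 13.9 to 32.3), of which 14 encode large and 5 small subunit proteins. Among the promoter peaks of the list 19 of 95 were broad (20%, 12.5 to 29.5), against 6.04% of all promoter peaks. Wide ones were at RPL13A (2708 bp, 20 fragments), RPL37 (2595 bp, 42), RPL13 (2121 bp, 37) and RPL23A (2011 bp, 18). The 19 broad peaks had a median width of 1460 bp and a median pileup of 19, near the 21 of all broad promoter peaks. The 35 broad peaks at transcription factor genes had 1351 bp and 31. The difference in height shows in the lower peaks. Among promoter peaks with a pileup below 20, 13.75% of those at ribosomal protein genes were broad (11 of 80), against 0.837% at transcription factor genes (2 of 239) and 2.69% of all. From 20 to 40 fragments the order was less clear, with 7 of 14 at ribosomal protein genes, 30 of 56 at transcription factor genes and 30.7% of all promoter peaks.

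The other housekeeping lists had lower shares, and their difference from ribosomal protein genes was not tested. Mitochondrial ribosomal proteins had a broad promoter peak at 3 of 78 genes, respiratory chain and ATP synthase genes at 3 of 84, translation factors at 4 of 68, spliceosome genes at 3 of 66, RNA polymerase II and Mediator at 2 of 43, and aminoacyl-tRNA synthetases at 1 of 35. Each interval held the background of 2.14%, and those of translation factors, RNA polymerase II and Mediator, and the synthetases reached into the ribosomal one. Proteasome genes had none of 39 (upper bound 9.03%), although 23 of them had a promoter peak of some length. EIF4A1, an RNA helicase of translation initiation (1602 bp, 26 fragments), EEF2, the elongation factor (1456 bp, 21), and AARS1, which charges alanine transfer RNA (1700 bp, 14), were among the members. MRPL36 and NDUFS6 shared 1 peak of 2020 bp with 44 fragments over a background of 2.18. All 8 housekeeping lists together, ribosomal protein genes included, gave 8.63% of broad promoter peaks (6.05 to 11.8) and 5.74% of narrower ones (5.17 to 6.35), intervals that overlapped, and 6.57% and 5.62% at a pileup of 20 to 40. Of the 34 broad promoter peaks of these lists, 19 lay at cytosolic ribosomal protein genes, and the shares without those genes were not computed.

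**Figure D3:**
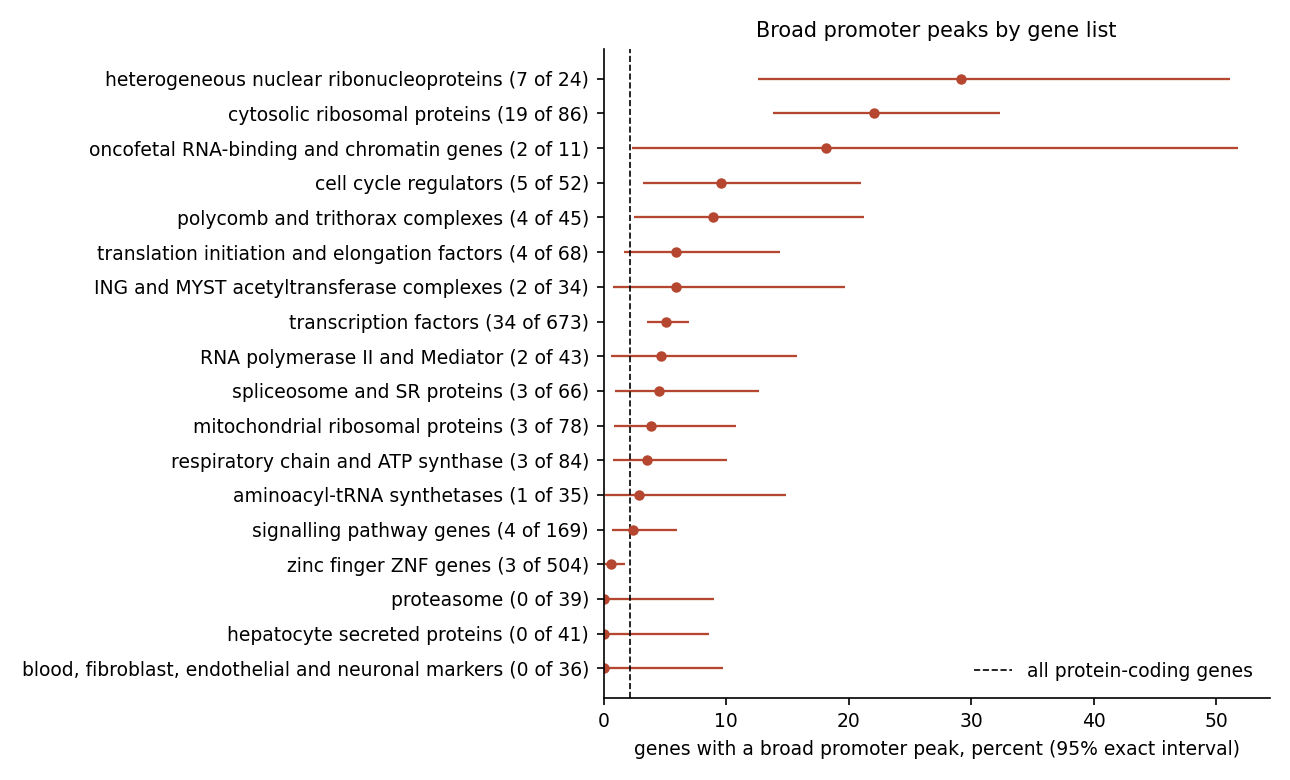
Share of genes with a promoter peak of 1000 bp or more, in percent, for the 18 gene lists (points; bars are exact 95% intervals; counts beside the names). The dashed line is the 2.14% of all protein-coding genes. Ribosomal proteins and heterogeneous nuclear ribonucleoproteins stand at 22.1% and 29.2%, and the ZNF genes at 0.595%.

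Heterogeneous nuclear ribonucleoproteins, which package new transcripts, had broad promoter peaks at 7 of 24 genes (29.2%, 12.6 to 51.1, against 2.14% of all genes). A promoter peak of any length was found at 18 of the 24 (75%), against 30.9% of all genes. Of their 33 promoter peaks 8 were broad (24.2%, 11.1 to 42.3), against 6.04% of all promoter peaks. HNRNPU, whose promoter is printed above, had 1659 bp and 55 fragments, and HNRNPUL2 1443 bp and 49. HNRNPUL1 (1931 bp, 24 fragments), HNRNPA0 (1740 bp, 36), HNRNPD (1427 bp, 16), HNRNPF (1201 bp, 23) and HNRNPH1 (1074 bp, 22) made up the rest. Among 11 oncofetal genes 2 had a broad peak (18.2%, 2.28 to 51.8, against 2.14% of all genes, with a peak of any length at 36.4% against 30.9%), IGF2BP3 and its paralogue IGF2BP1 (1479 bp, 25 fragments). Of the 7 promoter peaks of the oncofetal genes 2 were broad (28.6%, 3.67 to 71.0), an interval that held the 6.04%.

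Chromatin and cell cycle genes gave smaller counts. A promoter peak of any length was frequent there, at 57.8% of polycomb and trithorax genes, 61.8% of ING and MYST genes and 53.9% of cell cycle regulators, against 30.9% of all genes. Among their promoter peaks, in the same order, 4 of 37, 2 of 31 and 6 of 38 were broad (10.8%, 6.45% and 15.8%). The intervals of 3.03 to 25.4, 0.791 to 21.4 and 6.02 to 31.3 each held the 6.04% of all promoter peaks. Of 45 polycomb and trithorax genes, 4 had a broad promoter peak (8.89%, 2.48 to 21.2, against 2.14% of all genes), among them BAHCC1, a reader of a repressive histone mark (1910 bp, 43 fragments), WDR5, a core subunit of histone H3 methyltransferases (1036 bp, 21), and the demethylase gene KDM6A (1072 bp, 17). In the ING and MYST complexes 2 of 34 genes had one (5.88%, 0.721 to 19.7, an interval that held the 2.14%), MSL2 (1424 bp, 33) and BRPF1, a scaffold of the KAT6A and KAT6B complexes (1003 bp, 16). Neither ING5 itself nor the acetyltransferase genes of the list were among them. Cell cycle regulators had 5 of 52 (9.62%, 3.20 to 21.0, against the same 2.14%), among them the inhibitor genes CDKN2C (2562 bp, 55) and CDKN1B (2322 bp, 53), the phosphatase gene CDC25B and CDK13 (1004 bp, 27). A broad peak inside the canonical transcript of CDC25B had 1065 bp and 18 fragments. Another, near a CDC25B start but inside the canonical transcript of CENPB, had 1083 bp and 26. Signalling genes were at the background, with 4 of 169 (2.37%, 0.649 to 5.95), such as WNT5A, a Wnt ligand (2029 bp, 25), DUSP1, a phosphatase that dampens MAP kinases (1899 bp, 31), and SPRY2, an inhibitor of receptor tyrosine kinases (1103 bp, 26).

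The 2 lists of genes that mark cell types had no broad promoter peak (upper bounds 8.604% and 9.739%). Both intervals held the 2.14% of all protein-coding genes, so these counts do not set the lists apart. None of 41 hepatocyte secreted protein genes (upper bound 8.604%) had a promoter peak of any length, against 30.9% of all protein-coding genes, and of 36 markers of blood, fibroblast, endothelial and neuronal cells 2 had a narrower one and none a broad one. What these counts say about the labelled cell line was not tested. Outside the lists, and named after their values were seen, the keratin genes KRT7 (2179 bp, 25 fragments) and KRT18 (1746 bp, 17) had broad promoter peaks. Keratin genes were not counted as a group, so these 2 are not read as markers of a cell type.

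Starts of lncRNA genes were met by 147 broad summits. This was 29.3% of broad peaks (25.4 to 33.5) against 20.8% of narrower ones (19.9 to 21.7), and 28.4% (22.97 to 34.2) against 24.8% (21.3 to 28.6) at a pileup of 20 to 40, where the intervals overlapped. Most of these starts lay beside a protein-coding start: 111 of the 147 were promoter peaks as well. The 36 others made up 7.19% of broad peaks (5.08 to 9.81) and the like 3.77% of narrower ones (3.37 to 4.21), and 5.36% and 3.15% at a pileup of 20 to 40. By gene, 154 of 18592 lncRNA genes had a broad peak at a start, or 0.828%. Besides the peaks of MIRLET7BHG, the widest were at TFAP2A-AS1, antisense to TFAP2A, at CASC11 beside MYC, at a start between HOXA11 and HOXA13 (2955 bp, 56 fragments) and at a transcript overlapping ELF3. The deposited list has no strand, so a peak between an lncRNA start and a coding start cannot be given to either.

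Of the broad peaks, 71 had no protein-coding or lncRNA start within 1000 bp of the summit (14.2%, 11.2 to 17.5), against 20.4% of narrower ones (19.5 to 21.3) and 13.03% and 12.9% in the pileup range of 20 to 40. At 35 of the 71 a start lay within 1000 bp of some base of the peak. The median distance of these summits to any start was 1677 bp, and 47 lay inside a protein-coding gene. At IRS2, IRF2BPL and ZFP36L2, named as examples of wide ones, the summits lay in an exon, 2253, 2009 and 1601 bp downstream of the canonical start, under peaks of 3747, 3022 and 2307 bp. Few lay far from any start. The farthest lay in an intron of AHRR, a repressor of the aryl hydrocarbon receptor, 26954 bp from a start, with 2347 bp and 32 fragments over a background of 1.70. The next were in OSBPL5, 14812 bp away, on chromosome 11 near MRGPRG and on chromosome 20 near SLCO4A1, 13882 and 10865 bp from a lncRNA start, and in ART1, 9863 bp from a start of CHRNA10, with 17 to 28 fragments over backgrounds of 2.41 to 3.13.

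MicroRNA hairpins lay under 8 broad peaks, of 37 hairpins under any peak and 1558 in the RefSeq table. Per 100 kb of peak this was 1.07 for broad and 0.925 for narrower peaks. The mature forms of those 8 hairpins gave 13 sequences with 13 different seeds, so no seed was shared. The arms chosen come from MIR196B in the HOXA cluster, MIR1469 in the peak of NR2F2 and MIR193B, the last of which lay under a peak of 2185 bp with 18 fragments. Capitals mark the seed, bases 2 to 8, which pairs with target transcripts. Their GRCh38 positions are chr7:27169528-27169549 (minus strand), chr15:96333261-96333282 (plus) and chr16:14304017-14304038 (plus).
hsa-miR-196b-5p: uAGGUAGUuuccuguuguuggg
hsa-miR-1469: cUCGGCGCggggcgcgggcucc
hsa-miR-193b-3p: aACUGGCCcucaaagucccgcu

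The let-7 hairpins were not under broad peaks, although their host gene had the second to the fourth widest. MIRLET7A3 and MIRLET7B lay 24288 and 25225 bp from the nearest broad peak, and 1531 and 585 bp from a peak of 375 bp with 10 fragments.

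Broad peaks had close neighbours. Another peak lay within 10 kb, edge to edge, of 327 of 501 (65.3%, 60.9 to 69.4), against 46.6% of narrower peaks (45.6 to 47.7). Within 1 kb it was 47.7% (43.3 to 52.2) against 31.7% (30.7 to 32.8). The difference was smaller in the pileup range of 20 to 40. There 68.6% (62.6 to 74.2) and 61.0% (56.9 to 65.0) had a neighbour within 10 kb, and 49.8% (43.6 to 56.04) and 47.6% (43.4 to 51.7) within 1 kb, and both pairs of intervals overlapped. The share with a neighbour went up with width from 61.3% at 1000 to 1494 bp to 82.8% at 2000 bp or more (70.6 to 91.4). Several of the widest peaks are neighbours of one another at HOXA and MIRLET7BHG, so they are not separate cases. The smallest gap in the list was 184 bp, next to a fragment size of 183 bp in the headers of the file, and no neighbouring peaks lay closer than that.

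Runs, in which each peak lay within 10 kb of the next, numbered 6067 with single peaks included. A broad peak was found in 445 of them, 2 or more in 31 and 3 or more in 8. Those 8 runs held 41 broad peaks, while 174 broad peaks had no neighbour within 10 kb. ITGB8 is such a lone case, with 2946 bp, 44 fragments and the next peak 620777 bp away. Of the 41 broad peaks in the 8 runs, 14 had no start within 1000 bp of the summit, out of the 71 such peaks in all.

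The run with most broad peaks lay over the HOXA cluster, chr7:27168436-27206207. It held 19 peaks, 11 of them broad, which together covered 70.4% of 37772 bp. The broad ones ran from 1048 to 3826 bp wide and from 14 to 56 fragments high. They began with the peak that holds MIR196B (1533 bp, 49 fragments), passed HOXA10, HOXA11 and HOXA13, and ended in HOTTIP, a lncRNA gene at the end of the cluster, with 1422 bp and 29 fragments. Narrower peaks of the run had 8 to 24 fragments, a range that overlapped that of the broad ones.

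The run at MIRLET7BHG, chr22:46027809-46137020, held 32 peaks and 8 broad ones over 109212 bp, 32.7% of it covered. The broad peaks had 40 to 131 fragments and the narrower ones 7 to 24, so the 2 groups did not overlap in height. All 8 lay in the first part of the run, and the 17 peaks after the last of them measured 185 to 691 bp. At TFAP2A, chr6:10403993-10427130, 7 peaks covered 70.2% of 23138 bp. The widest, with 118 fragments, had broad neighbours of 1171 bp with 14 fragments and 1356 bp with 35. A narrower one of 909 bp stood as high as 43 fragments.

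**Figure D4:**
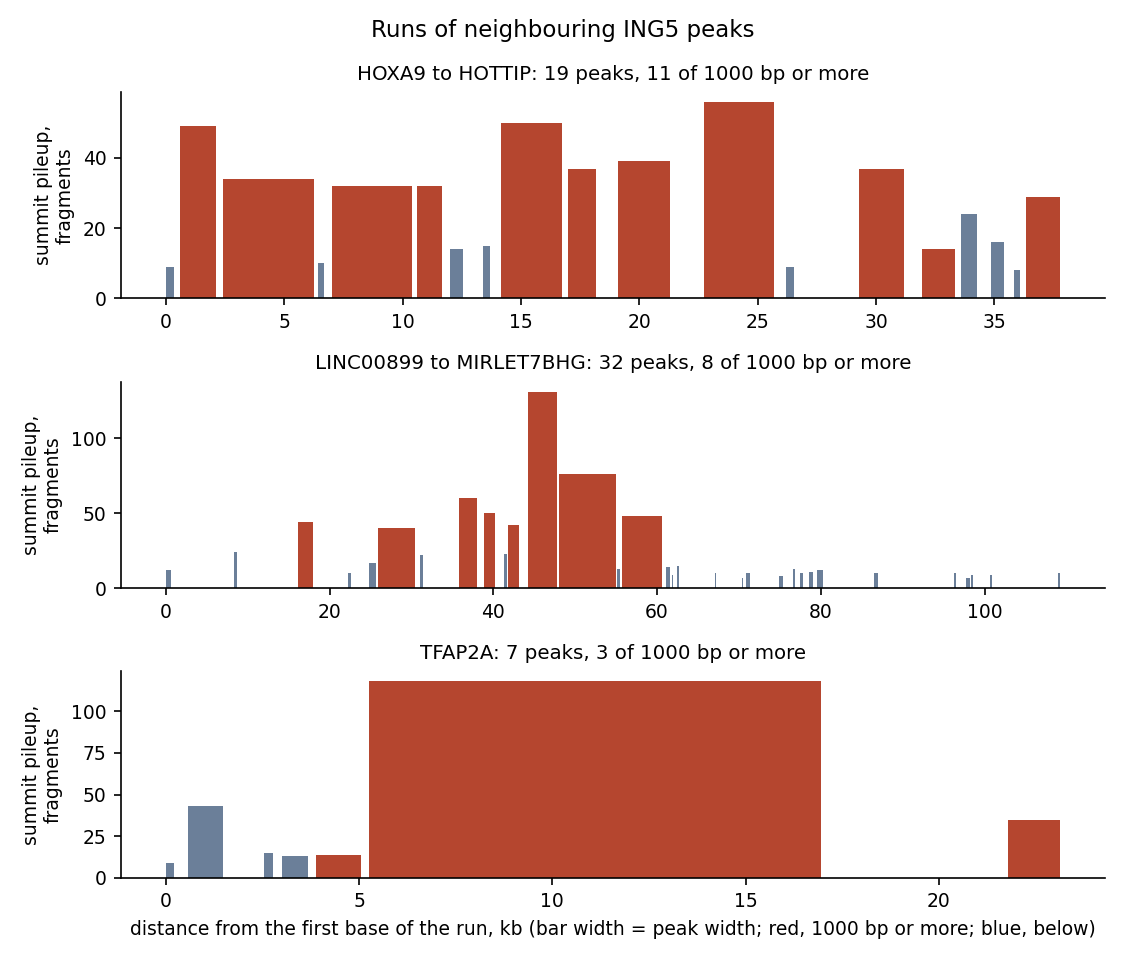
Peaks of 3 runs, by distance in kb from the first base of the run; bar width is peak width and bar height is the pileup at the summit, in fragments (not the shape of the signal). Red bars are peaks of 1000 bp or more, 11 of 19 at HOXA, 8 of 32 at MIRLET7BHG and 3 of 7 at TFAP2A.

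The other 5 runs with 3 or more broad peaks differed in their background. At OSBPL5 on chromosome 11, 41 peaks with 7 broad ones stood over a median background of 3.002 fragments, and at PGAP2 and RHOG, 15 peaks with 3 broad ones stood over 4.26. The summits there reached 43 and 36 fragments. At SLC7A5, an amino acid transporter gene, 22 peaks with 3 broad ones stood over the lowest background, and at LAMA5 and RPS21 19 peaks with 3 broad ones over 0.917. The run at FAF1 and CDKN2C had 8 peaks, 3 of them broad, with up to 60 fragments over 1.51. What raised the background was not tested.

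**Figure D5:**
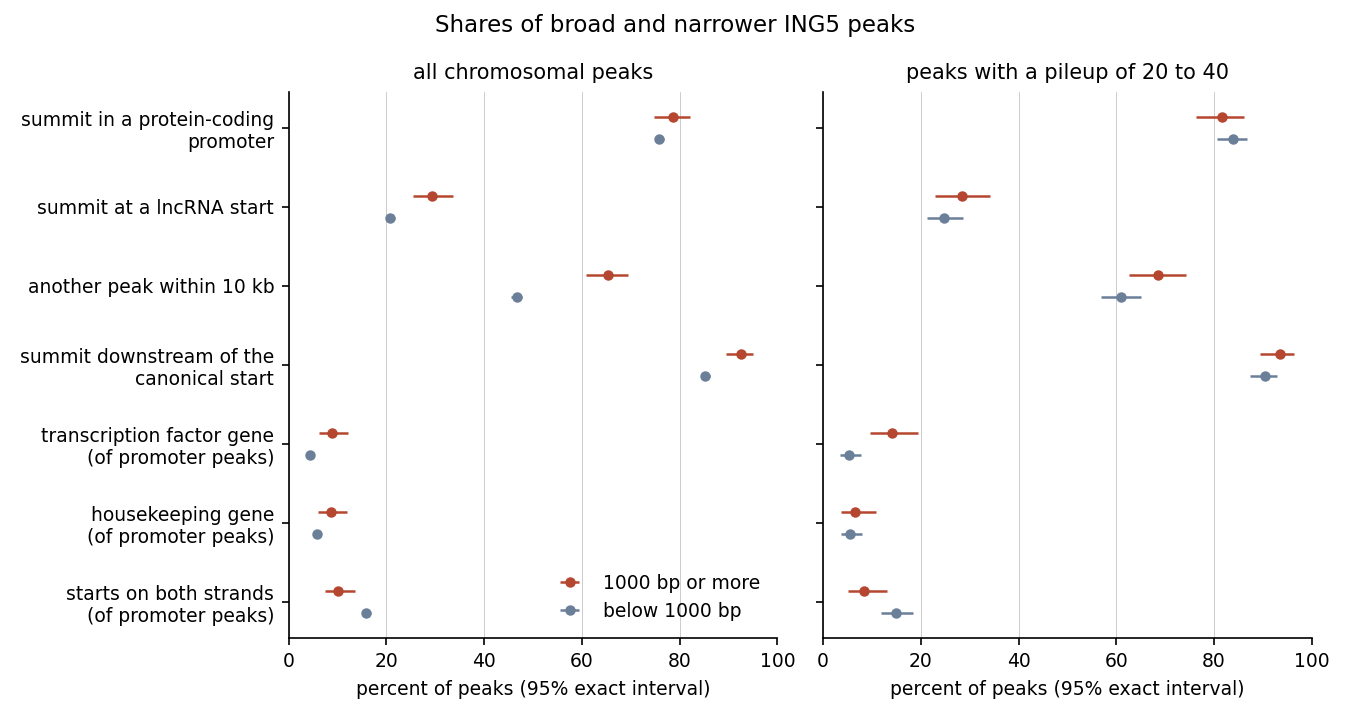
Shares of broad (red) and narrower (blue) peaks, in percent with exact 95% intervals, over all chromosomal peaks (left) and over peaks with a pileup of 20 to 40 (right). Neighbours within 10 kb, for example, are at 65.3% and 46.6% on the left and at 68.6% and 61.0% on the right.

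Broad peaks were found on all 23 chromosomes examined. They made up 1.37% of peaks on chromosome 4 (2 of 146, 0.166 to 4.86) and 8.68% on chromosome 22 (21 of 242, 5.45 to 12.96), and between those on the others. Over all these chromosomes it was 501 of 8589. Of the 21 on chromosome 22, 8 lay in the run at MIRLET7BHG. Chromosome 5, where 69.3% of peaks had a background above the lowest, had 45 broad peaks of 661 (6.81%), and X, where 15.3% did, had 8 of 118 (6.78%).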

How the data were processed

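One ING5 ChIP-seq library and 1 input library of HepG2 cells were analysed, as the 1 peak list the authors deposited; its headers give the ChIP library another name than the labels, and it was taken as ING5 from the record of which sample the file belongs to. The tools fastp 0.19.6, and Bowtie2 and deepTools without a version, were used per the submitters' processing notes. Peaks were called with MACS2 2.1.1.20160309 on paired-end fragments at a p cutoff of 1e-05 with broad region calling off, per the file headers, so a wide peak is a long stretch called in the narrow mode. The deposited pileup is a coverage signal in fragments at the summit. The deposited significance is −log10 p and −log10 q; q is marked as not calculated in the headers and was not used. The deposited fold enrichment is a ratio of pileup to local background with a pseudocount of 1, from which the background was recovered. The labels name GRCh37, but the sequence names and the match to gene starts are those of GRCh38, and gene positions are the GRCh38 positions that GENCODE 44 records for its exons. Promoter and microRNA sequences are from RefSeq (GRCh38.p14).

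Peaks were grouped by length, classed by summit with a window of 1000 bp, and joined in runs at gaps of up to 10 kb, with Python 3.11.15, pandas 2.3.3 and scipy 1.17.1; the functions were tested on simulated data. A total of 18 gene lists was matched by symbol. The members, the lists and the settings were chosen with earlier results of these data known. Genes were named by rule: the 10 widest broad peaks, the 10 with the highest fold enrichment and pileup, the 5 runs with most broad peaks, up to 5 genes of each list, the 3 lengths on either side of the limit, the 5 peaks farthest from a start and the 8 widest at lncRNA starts. Other genes, the printed sequences and the runs drawn were chosen after their values were seen, and some items that the rule names are not reported here. Alternatives were a limit of 800 or 1500 bp, the more significant part of the peaks, a pileup of 20 to 40, the lowest background only, other windows, starts and gaps, and the peaks without the 8 runs that hold 3 or more broad ones. Depth was not varied, so how far the widths depend on it was not tested.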

Additional observations from a re-analysis of the deposited data

Results flagged for a closer look

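Peaks outside chromosomes 1 to 22 and X entered no comparison here, yet the list holds enriched regions there. On sequences without a chromosomal place, or alternative ones, 19 peaks were called, whose summits held 10 to 72 fragments. The longest measured 395 bp, with 22 fragments and 10.2-fold enrichment, and none reached 1000 bp.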

How the results depend on the processing

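No paired analysis was possible because each group has 1 library. Of 67 alternatives, 41 stayed inside the interval of the main value (or within 1.5 times a count), and in 5 the order of broad and narrower peaks turned, among them the more significant part (80.5%, narrower 85.3%). A limit of 800 bp gave 942 broad peaks with a median pileup of 19, 83.0% in promoters and 58.1% with a neighbour, and a limit of 1500 bp gave 155 with a median pileup of 28, 69.7% in promoters (narrower 76.1%), 74.2% with a neighbour, and transcription factor and housekeeping genes at 12.96% each. Within a pileup of 20 to 40 the median pileup was 25 and the transcription factor share 14.1%. The promoter share was 82.2% without the runs of 3 or more broad peaks and 83.1% at the lowest background. It was 27.1% (narrower 31.8%) with a window of 200 bp, 88.2% with 3000 bp, 59.9% for starts inside the peak, 56.7% (narrower 65.2%) with canonical starts, and 85.4% with any base, a setting chosen after seeing the data, as was the list without HOX genes. For lncRNA starts the first 3 of these gave 10.6%, 42.5% and 21.8%. Canonical starts gave 5.63% (narrower 3.58%) for transcription factor genes, and all starts gave 75.8% (narrower 74.5%) downstream. A neighbour gap of 5 kb gave 60.1% and of 50 kb 78.4%. The cause was not tested where no setting explains it by construction.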
